A study of Saccharomyces cerevisiae with 4 samples.

Results

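The mitochondrial ATP synthase and the vacuolar ATPase of budding yeast (Saccharomyces cerevisiae) were followed through 42 genes: 23 for the ATP synthase with its assembly factors and inhibitor proteins, and 19 for the vacuolar ATPase with the RAVE complex. They were picked by name from the 5449 yeast genes measured on the arrays, with 1 probeset per gene, and all 42 had one. The cells were strain BY4741, a haploid laboratory strain with deletions in HIS3, LEU2, MET15 and URA3, grown with shaking at 30 °C in YPD, a rich glucose medium. Of 4 exponentially growing cultures, 2 received the histone deacetylase inhibitor CG-1521 at 50 μM and 2 received the vehicle (control), each for 1 h. The 2 cultures of a group were independent biological replicates per the series' design text, with 1 array per culture.

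Both pumps are rotary machines that couple proton flow across a membrane to ATP. The ATP synthase of the inner mitochondrial membrane lets protons in through its membrane sector, Fo, and the turning central stalk drives ATP formation in the F1 head. Small inhibitor proteins bind the F1 head when the enzyme would run backwards and spend ATP. The V-ATPase normally runs the opposite way: its V1 head splits ATP and its membrane sector, Vo, pumps protons into the vacuole, the Golgi and endosomes. V1 and Vo can come apart, for instance when glucose is withdrawn, and the RAVE complex puts them together again. On glucose, yeast makes most of its ATP by fermentation and respiration is partly repressed, while the V-ATPase is in constant use.

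Values are log2 RMA values, the log2 scale of probeset intensities after background correction and quantile normalization by the authors. A log2 fold change is the CG-1521 mean minus the control mean on that scale. A gene is said to have risen or fallen where limma's Benjamini-Hochberg adjusted p over all 5449 genes was under 0.05. The arrays correlated, across genes, at 0.983 within the CG-1521 group, at 0.994 within the control group and at 0.932 to 0.956 across groups. Of the genes deleted in the strain, URA3 and MET17 (the current name of MET15) lay below background on all 4 arrays. LEU2 read 2.77 and 3.09 on the CG-1521 arrays and 2.08 and 2.42 on the control arrays, close to the background of 2.42 to 2.45. Although deleted, LEU2 passed the test as higher, with a log2 fold change of 0.68 (limma adjusted p = 0.0488). HIS3 lay between 10.21 and 10.91, and the allele in this strain is known to remove only a part of that gene. Its log2 fold change was -0.60, and it was called lower (limma adjusted p = 0.0217). All 42 pump genes lay above background on all 4 arrays.

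Of the 42 genes, 2 rose and 1 fell, which is 7.14% of them, beside 29.7% called among all genes tested (12.9% higher and 16.8% lower). The 2 that rose were STF1 and STF2, which attend the inhibition of the ATP synthase, and the gene that fell was ATP10, an assembly factor. In whole cultures, fewer cells with a transcript and less of it per cell cannot be told apart. Of the 28 members that encode subunits of the pumps themselves, 14 for each pump, 0 passed the test in limma. Of these, 4 had an unadjusted p under 0.05 (ATP4, ATP15, ATP18 and VPH1). An unadjusted p under 0.05 was found for 23.8% of the 42 genes and for 44.7% of all genes. Without control replicate 1 the calls over all genes numbered 58 higher and 18 lower, and without control replicate 2 they numbered 50 and 16, with STF1 and STF2 among those that rose each time and 0 members among those that fell. Without CG-1521 replicate 2, 4 ATP synthase genes other than ATP10 were lower and RAV2 was higher. The median log2 fold change was 0.02 over the 42 genes and -0.04 over all genes, and the median size of the change without its sign was 0.15 over the 42 genes and 0.32 over all genes. A change of at least 1 on the log2 scale was found in 3 of the 42, or 7.14%, and in 8.46% of all genes. Both CG-1521 values lay above both control values for 14 of the 42 genes, beside 31.4% of all genes tested, and below both for another 14, beside 40.9%. Together these are 66.7% of the 42 genes, beside 72.3% of all genes.

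**Figure D1:**
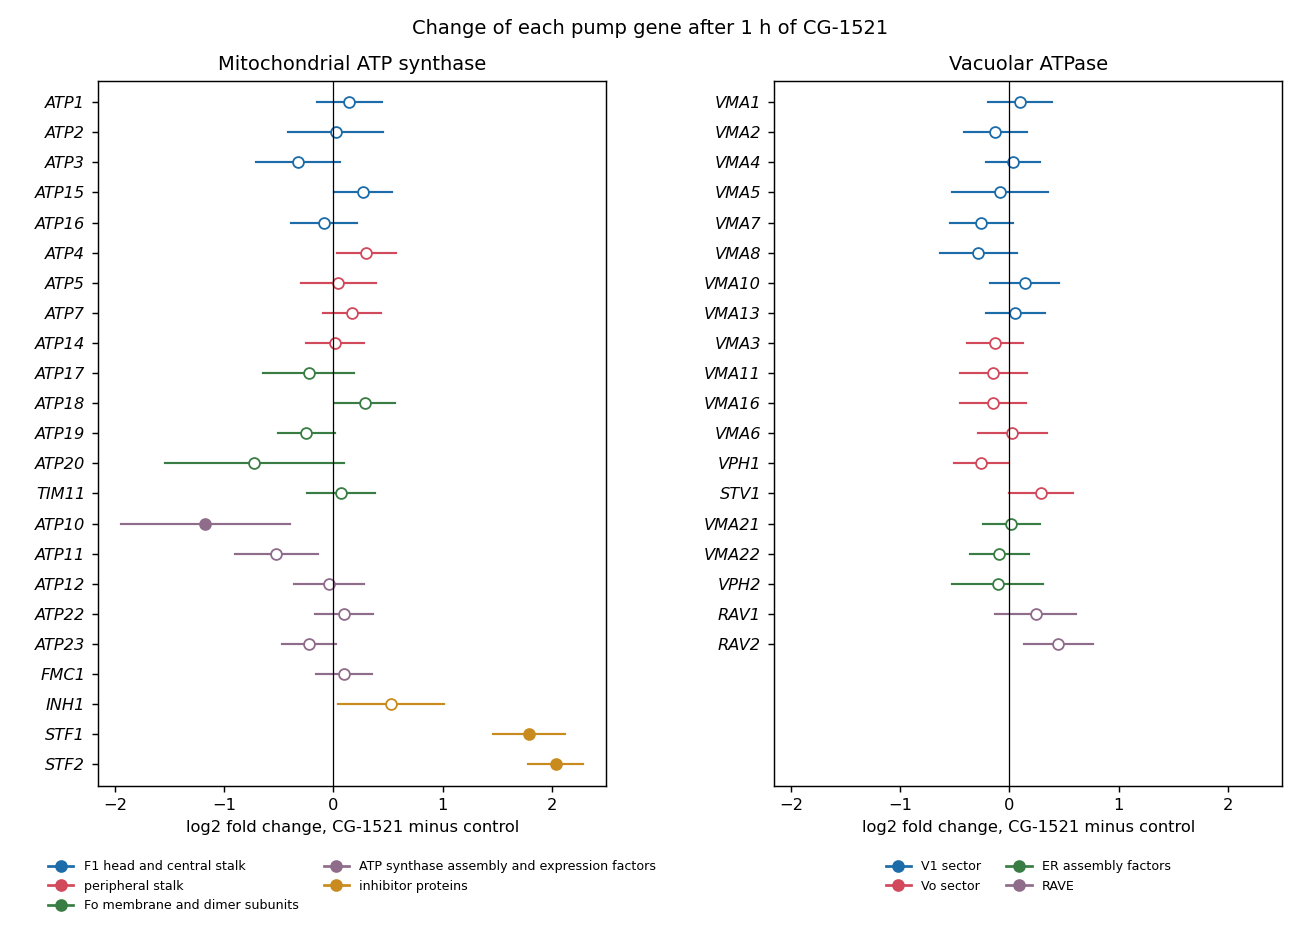
Log2 fold change (CG-1521 minus control, horizontal axis) of the 23 ATP synthase genes (left) and the 19 V-ATPase genes (right), with lines for limma's 95% confidence intervals and colours for the roles. Filled points passed the test: STF2 at 2.03, STF1 at 1.79 and ATP10 at -1.17; open points did not, and those of the V-ATPase lie between -0.28 and 0.45.

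The F1 head and central stalk, where ATP is made, had 0 of 5 genes called, beside 29.7% of all genes. Their median log2 fold change was 0.02. ATP2, the catalytic beta subunit, had log2 values of 8.22 and 8.63 in CG-1521 cultures, against 8.38 and 8.43 in control cultures. The CG-1521 values enclosed the control values, and the log2 fold change was 0.02 (95% interval -0.41 to 0.46). ATP1, the alpha subunit that alternates with beta around the head, had 11.86 and 11.97 in CG-1521 cultures, against 11.85 and 11.69 in control cultures. Its lower CG-1521 value lay 0.01 above the higher control value, and the log2 fold change was 0.15 (95% interval -0.15 to 0.45, limma adjusted p = 0.37). In the rotating stalk, ATP3 (gamma) stood at -0.33 and ATP16 (delta) at -0.09, while ATP15 (epsilon) stood at 0.27. ATP15 had the smallest p of the 5 (limma adjusted p = 0.107), with 11.96 and 12.05 in CG-1521 cultures and 11.72 and 11.76 in control cultures. Without CG-1521 replicate 2, ATP3 was called lower at -0.49 (limma adjusted p = 0.0335).

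The peripheral stalk, which keeps the head from turning along with the rotor, had 0 of 4 genes called, beside 29.7% of all genes. Their log2 fold changes lay between 0.02 and 0.30. ATP4 (subunit b) had log2 values of 11.39 and 11.46 in CG-1521 cultures, against 11.07 and 11.18 in control cultures. The groups did not overlap, and the log2 fold change of 0.30 (SE 0.10) did not pass the test (limma adjusted p = 0.0896). ATP7 (subunit d) stood at 0.17, ATP5 (the oligomycin sensitivity protein that joins stalk and head) at 0.04 and ATP14 (subunit h) at 0.02.

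The small nuclear-encoded subunits of the membrane sector were less alike, with log2 fold changes between -0.72 and 0.29. Of these 5 genes 0 were called, beside 29.7% of all genes. ATP20 (subunit g) and TIM11 (subunit e) hold neighbouring enzymes together as dimers that shape the folds of the inner membrane. ATP20 had log2 values of 8.86 and 9.76 in CG-1521 cultures, against 10.09 and 9.98 in control cultures. Both CG-1521 values lay below both control values, but they stood 0.90 apart, and the log2 fold change of -0.72 (SE 0.31) did not pass (limma adjusted p = 0.142). Without CG-1521 replicate 2 it was -1.17 and was called lower (limma adjusted p = 0.00949). TIM11, its partner in the dimer, had 10.90 and 10.78 in CG-1521 cultures, against 10.68 and 10.86 in control cultures, with overlapping groups and a log2 fold change of 0.07. ATP18 (subunit i/j) stood at 0.29, ATP19 (subunit k) at -0.25 and ATP17 (subunit f) at -0.23. ATP17 was called lower without CG-1521 replicate 2, at -0.42 (limma adjusted p = 0.0484).

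Of 6 assembly and expression factors 1 fell, or 16.7%, close to the 16.8% among all genes. It was ATP10, the only member that fell. Atp10 is an inner membrane protein needed to build subunit 6 (Atp6), a mitochondrially encoded part of the proton channel, into the enzyme. ATP10 had log2 values of 4.23 and 3.81 in CG-1521 cultures, against 4.82 and 5.56 in control cultures. Both CG-1521 values were lower than both control values, on a dim probeset whose control values themselves lay 0.74 apart. The log2 fold change was -1.17 (SE 0.29, 95% interval -1.95 to -0.40, limma adjusted p = 0.0439), a 2.25-fold difference. The call rested on having all 4 arrays: the adjusted p was 0.0557 without CG-1521 replicate 1, 0.0916 without CG-1521 replicate 2, 0.0705 without control replicate 1 and 0.136 without control replicate 2. It also missed with all probesets in the fit (limma adjusted p = 0.0905) and with an intensity trend (limma adjusted p = 0.0509), and over 13 alternatives the log2 fold change stayed between -1.54 and -0.80.

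Atp11 and Atp12 are chaperones that hold free beta and alpha subunits before the F1 head forms. ATP11 had log2 values of 9.91 and 10.23 in CG-1521 cultures, against 10.64 and 10.54 in control cultures. The groups did not overlap, and its log2 fold change of -0.52 (SE 0.14) narrowly missed (limma adjusted p = 0.054). It was called without CG-1521 replicate 2, at -0.68 (limma adjusted p = 0.0196), and with an intensity trend (limma adjusted p = 0.0267). ATP12 stood at -0.04 with overlapping groups, and the catalytic and alpha subunits that the chaperones serve were not called. Among the other factors, ATP23, a protease and chaperone for subunit 6, stood at -0.23, ATP22, a translation activator for the same subunit, at 0.10, and FMC1, which helps Atp12 at high temperature, at 0.10.

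In the group of inhibitor proteins, counted here together with STF2, 2 of 3 genes rose, beside 12.9% of all genes, and the third did not pass. STF1, a small protein close in sequence to the main inhibitor Inh1 and also able to inhibit the enzyme, had log2 values of 11.58 and 11.39 in CG-1521 cultures, against 9.62 and 9.78 in control cultures. STF1 rose by 1.79 (SE 0.13, 95% interval 1.46 to 2.12, limma adjusted p = 0.00695), or 3.45-fold, with groups that did not overlap. STF2 was first described as a factor that stabilizes the bound inhibitor and is also known as a hydrophilin tied to survival of drying. It had 12.01 and 12.04 in CG-1521 cultures, against 10.02 and 9.96 in control cultures. STF2 rose by 2.03 (SE 0.10, 95% interval 1.78 to 2.29, limma adjusted p = 0.00676), or 4.10-fold, and its replicates lay 0.03 apart in CG-1521 cultures and 0.05 apart in control cultures. Among all 5449 genes STF2 ranked 39 and STF1 ranked 59 by log2 fold change, counted from the largest rise. Both genes passed in all 13 alternatives, at 1.69 to 1.88 for STF1 and 2.01 to 2.09 for STF2, including those that left out a control array, in which few genes of the whole table passed.

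INH1, which encodes the main inhibitor, did not pass. It had log2 values of 8.94 and 8.68 in CG-1521 cultures, against 8.07 and 8.49 in control cultures. Both CG-1521 values lay above both control values, by 0.19 at the closest, and the log2 fold change was 0.53 (SE 0.19, 95% interval 0.04 to 1.01, limma adjusted p = 0.0951). The change of STF1 exceeded that of INH1 by 1.26 and the change of STF2 exceeded it by 1.51. An exact two-sided permutation test over the 4 arrays gave p = 0.333 for each of these differences. That is the smallest p that 2 against 2 arrays can give, so the test cannot show a difference between the genes' responses.

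**Figure D2:**
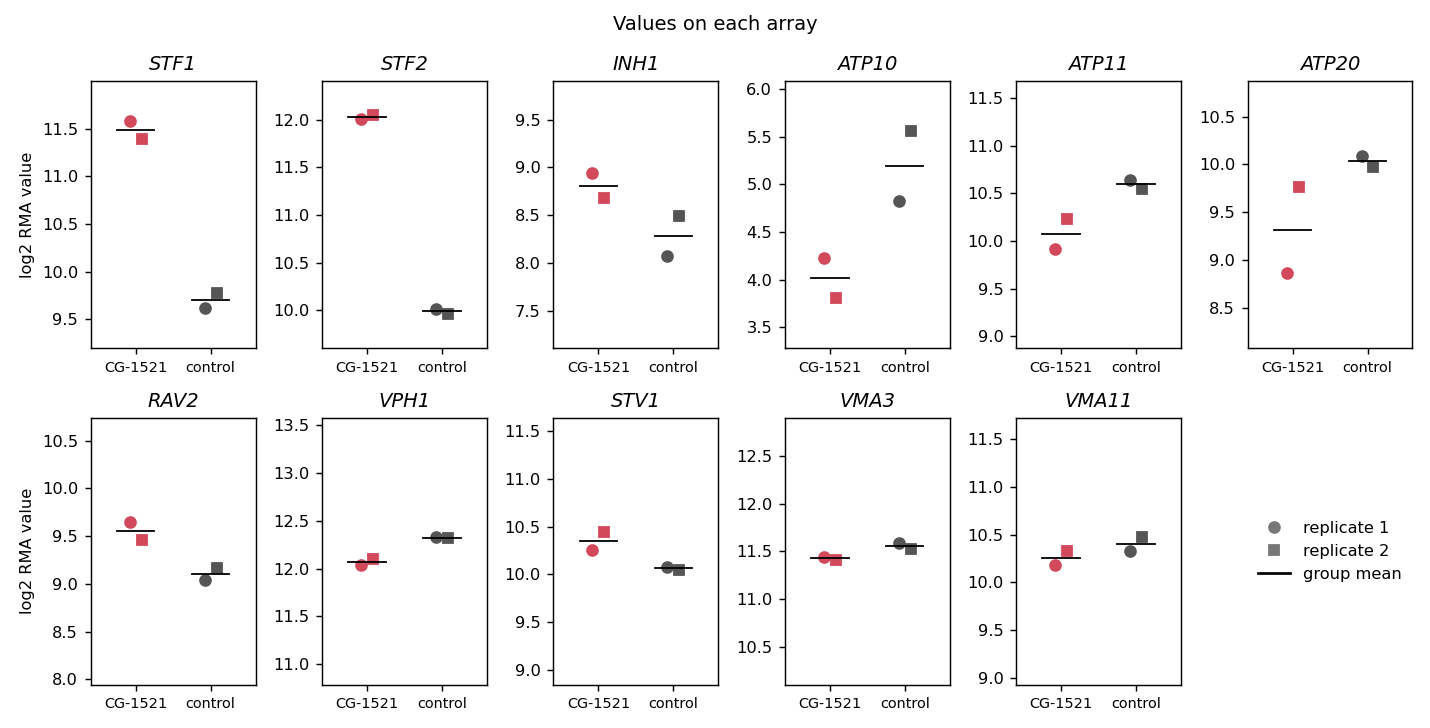
Log2 RMA value (vertical axis, the same span of values in every panel but a different start) on each array for 11 members, CG-1521 left and control right, with circles for replicate 1, squares for replicate 2 and lines for group means. The groups stand far apart for STF1 and STF2, ATP10 and ATP20 show wide replicate gaps, and the means of VMA3 and VMA11 differ between groups by at most 0.15.

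In the V-ATPase, 0 of 19 genes passed in limma, beside 29.7% of all genes, with log2 fold changes between -0.28 and 0.45. An unadjusted p under 0.05 was found for 2 of the 19 (VPH1 and RAV2), or 10.5%, beside 44.7% of all genes. In the V1 head 0 of 8 genes were called. VMA1, the catalytic A subunit, whose precursor also carries a self-splicing intein, had log2 values of 12.94 and 13.11 in CG-1521 cultures, against 12.95 and 12.90 in control cultures, with overlapping groups and a log2 fold change of 0.10. VMA2, the B subunit, had 11.07 and 11.23 in CG-1521 cultures, against 11.31 and 11.25 in control cultures. Its groups were separated by 0.02 at the closest, and its log2 fold change was -0.13 (95% interval -0.42 to 0.16). The stalk subunits VMA8 (D) and VMA7 (F) had the lowest values of this sector, -0.28 and -0.26, with limma adjusted p-values of 0.168 and 0.139. VMA4 (E) and VMA10 (G), which form the peripheral stalks, stood at 0.03 and 0.14. VMA5 (C), the subunit released when V1 and Vo separate, stood at -0.09, and VMA13 (H), which silences free V1, at 0.05.

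In the Vo membrane sector 0 of 6 member genes were called, beside 29.7% of all genes. The proteolipid genes VMA3 (c), VMA11 (c′) and VMA16 (c″) encode the proton-carrying ring and stood close together, at -0.13, -0.15 and -0.15. VMA3 had log2 values of 11.44 and 11.41 in CG-1521 cultures, against 11.59 and 11.52 in control cultures. VMA11 had 10.18 and 10.33 in CG-1521 cultures, against 10.33 and 10.47 in control cultures, where the higher CG-1521 value and the lower control value all but met. The changes of VMA11 and VMA3 differed by -0.02 (exact two-sided permutation p = 1.00). With 2 against 2 arrays this test cannot go below 0.333, so it does not show that the 2 genes changed alike. VMA6 (d), which links the ring to the central stalk, stood at 0.03.

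VPH1 and STV1 encode alternative forms of subunit a, through which protons pass and which also decides where the pump works: Vph1 at the vacuole, Stv1 in the Golgi and endosomes. VPH1 had log2 values of 12.03 and 12.10 in CG-1521 cultures, against 12.33 and 12.32 in control cultures. Both CG-1521 values were lower, and its log2 fold change of -0.26 (SE 0.10) did not pass (limma adjusted p = 0.111). STV1 had 10.26 and 10.44 in CG-1521 cultures, against 10.08 and 10.04 in control cultures. Both CG-1521 values were higher, and its log2 fold change of 0.29 (SE 0.11) did not pass either (limma adjusted p = 0.117). The change of STV1 exceeded that of VPH1 by 0.54. The exact two-sided permutation p was 0.333, the smallest this design allows.

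Of the members that build the V-ATPase, 0 of 3 were called in the endoplasmic reticulum group and 0 of 2 in the RAVE group. Among all genes 29.7% were called. Vma21, Vma22 and Vph2 (also called Vma12) assemble Vo in the endoplasmic reticulum, and their genes stood at 0.02, -0.09 and -0.11. RAV2, a subunit of RAVE, had log2 values of 9.64 and 9.46 in CG-1521 cultures, against 9.04 and 9.16 in control cultures. Its groups did not overlap, and the log2 fold change of 0.45 (SE 0.12) lay at the threshold (limma adjusted p = 0.05002). It was called in 7 of 13 alternatives, among them the one without CG-1521 replicate 2 (limma adjusted p = 0.0325). RAV1, the large scaffold of RAVE, had 9.60 and 9.90 in CG-1521 cultures, against 9.46 and 9.56 in control cultures, a log2 fold change of 0.24 (limma adjusted p = 0.253).

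Set side by side, the ATP synthase genes had a median log2 fold change of 0.04 (2 rose, 1 fell, 20 not called). The V-ATPase genes had one of -0.09 (0 rose, 0 fell, 19 not called). Over all genes it was -0.04, and 12.9% rose and 16.8% fell. The difference of the pump medians was 0.13, and it was -0.04 without control replicate 1. Against the control mean, the median ATP synthase gene lay at -0.02 and 0.07 on the CG-1521 arrays, and the median V-ATPase gene at -0.07 and 0.00. The ATP synthase median minus the V-ATPase median was thus 0.05 and 0.08 in CG-1521 cultures, against -0.04 and 0.04 in control cultures. The lower CG-1521 value and the higher control value were nearly equal. The ATP synthase genes were more spread, with an SD of log2 fold changes among genes of 0.68, against 0.20 among V-ATPase genes and 0.59 among all genes. For subunits alone these SDs were 0.28 and 0.17. The 95% interval of the log2 fold change stayed within -1 to 1 for 14 of 14 V-ATPase subunits and for 13 of 14 ATP synthase subunits, ATP20 being the exception. That limit was chosen after the values were seen, and 4095 of all 5449 genes met it.

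**Figure D3:**
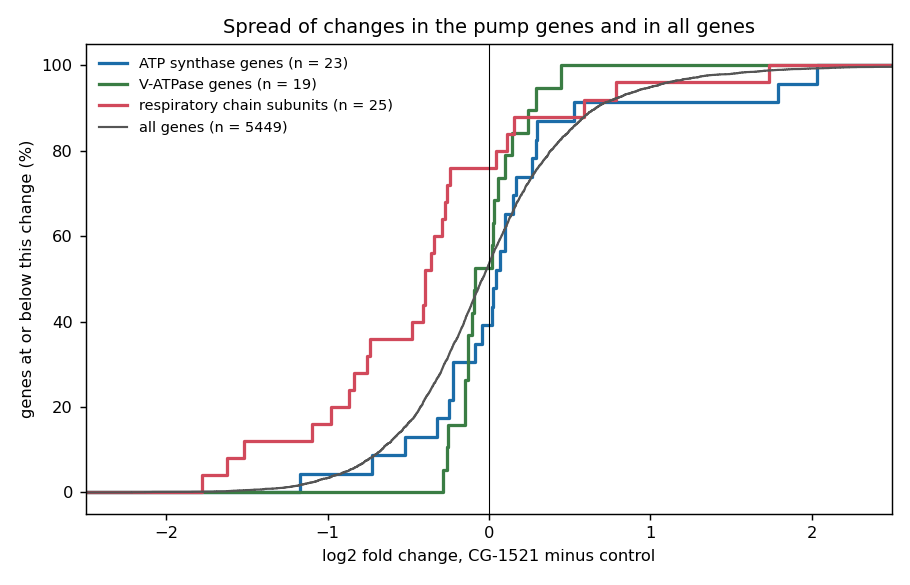
Share of genes at or below each log2 fold change (CG-1521 minus control) for the ATP synthase genes, the V-ATPase genes, the respiratory chain subunits and all genes, on a horizontal axis cut at the far ends. The V-ATPase curve climbs within -0.28 to 0.45, the ATP synthase curve has long tails on each side, and the respiratory chain curve lies to the left of the curve of all genes over much of the range below 0.

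The CG-1521 cultures were not alike in these genes. Of the 14 ATP synthase subunit genes, 13 read lower in CG-1521 replicate 1 than in replicate 2 (92.9%), against 49.0% of all genes, with TIM11 as the exception. The median gap over these 14 genes was -0.10, and ATP20, ATP2, ATP17, ATP3 and ATP5 had the widest, at -0.90, -0.41, -0.38, -0.33 and -0.28. Among V-ATPase subunits 9 of 14 read lower in replicate 1. The median gap over all genes was 0.01. For ATP10, INH1 and STF1 replicate 1 was instead the higher one, by 0.43, 0.26 and 0.19. Among 25 respiratory chain subunit and carrier genes, 19 read higher in replicate 1, with a median gap of 0.23. The part of this gap in the results above was not tested.

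**Figure D4:**
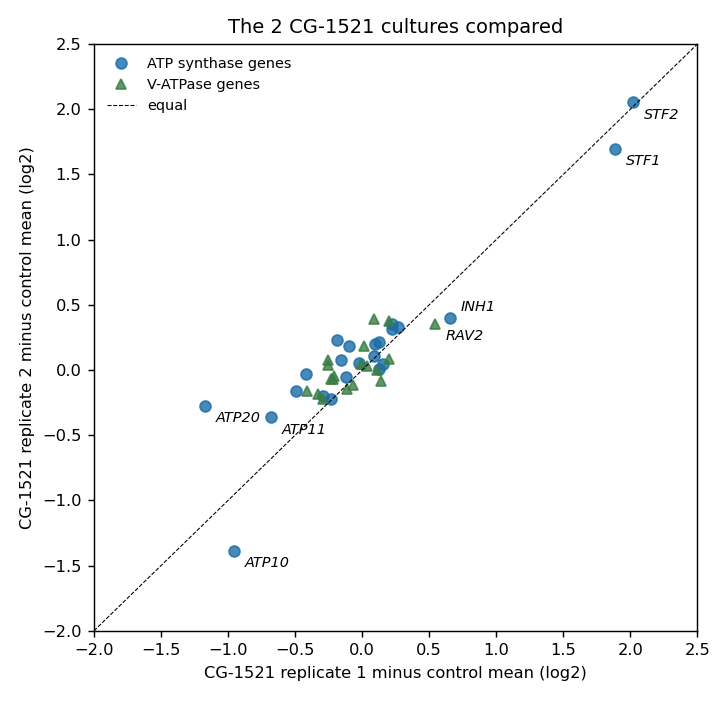
Log2 value of each member in CG-1521 replicate 1 (horizontal) and replicate 2 (vertical), both minus the control mean, with ATP synthase genes as circles and V-ATPase genes as triangles. STF1, STF2 and ATP10 lie far from 0 in both cultures, and ATP20 lies well above the line of equal values.

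Of 13 other genes that serve the ATP synthase, 10 were measured, 0 rose and 2 fell, or 20% called, beside 29.7% of all genes, with a median log2 fold change of 0.00; the mitochondrially encoded ATP6, ATP8 and OLI1 had no named probeset and were not analysed here. AEP2, which supports expression of OLI1, the gene of the rotor ring, had log2 values of 7.88 and 7.94 in CG-1521 cultures, against 8.33 and 8.46 in control cultures, and fell by 0.49 (SE 0.11, limma adjusted p = 0.0317). ATP25, which stabilizes the OLI1 message and aids ring assembly, had 9.45 and 9.25 in CG-1521 cultures, against 9.79 and 9.78 in control cultures, and fell by 0.43 (limma adjusted p = 0.0495). INA17, an assembly factor of the peripheral stalk, stood at 0.25, and AEP3, which stabilizes the message of ATP8 and ATP6, at 0.17; neither passed.

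Of 6 further V-ATPase genes 1 rose and 1 fell, or 33.3% called, beside 29.7% of all genes, and the 2 encode proteins with a related task. Oxr1 and Rtc5 are both known to promote the separation of V1 from Vo. OXR1 had log2 values of 10.06 and 9.94 in CG-1521 cultures, against 9.60 and 9.54 in control cultures, and rose by 0.43 (SE 0.10, limma adjusted p = 0.04). RTC5 had 9.64 and 9.56 in CG-1521 cultures, against 10.42 and 10.42 in control cultures, and fell by 0.82 (SE 0.10, limma adjusted p = 0.0108). SKP1, the third subunit of RAVE and also a part of ubiquitin ligases, stood at 0.27, PKR1, an assembly factor, at -0.36, and the Vo subunit e gene VMA9 at 0.07. SKP1 and VMA9 were not among the members, so the counts of RAVE and Vo genes above leave them out.

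Among 8 carriers that bring substrates to the ATP synthase or take its product away, 2 rose and 1 fell, or 37.5% called, beside 29.7% of all genes. Their median log2 fold change was -0.31, beside -0.04 over all genes, with 2 values above 0 and 6 below. The outer membrane porin POR1 rose by 0.65 (SE 0.10) and the phosphate and copper carrier PIC2 by 0.74 (SE 0.13), while SAL1, a calcium-dependent carrier of ATP, fell by 0.70 (SE 0.11), with limma adjusted p-values of 0.0164, 0.0198 and 0.0161. POR2, another porin, stood at -0.35 and the ADP/ATP carrier AAC1 at -0.32, and neither passed (limma adjusted p = 0.0659 and 0.08). The main phosphate carrier MIR1 stood at -0.30 and the main ADP/ATP carrier PET9 at -0.14, with limma adjusted p-values of 0.0931 and 0.497.

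The respiratory chain, which builds the gradient that the ATP synthase spends, had 10 of 25 subunit and carrier genes lower and 1 higher, or 44% called, beside 29.7% of all genes (16.8% lower). Its median log2 fold change was -0.39, beside -0.04 over all genes. The list was drawn up with earlier results for such genes known. Those that fell included the heme and iron-sulfur subunits CYT1 (-1.78) and RIP1 (-1.52) of complex III, QCR2 (-1.10), COR1 (-0.86), QCR7 (-0.75), QCR9 (-0.47) and QCR8 (-0.41), the complex IV subunits COX6 (-1.62) and COX4 (-0.98), and SDH4 (-0.74) of complex II. COX5B, the form of subunit 5 used when oxygen is low, rose by 0.79. Of the 25 genes, 6 had a log2 fold change above 0 and 19 one below. The largest, CYC7 at 1.74, did not pass (limma adjusted p = 0.13), with CG-1521 values 1.89 apart. HAP4, the regulated subunit of the activator complex that respiratory genes share, had log2 values of 8.48 and 9.03 in CG-1521 cultures, against 9.64 and 9.86 in control cultures, and fell by 0.99 (SE 0.22, limma adjusted p = 0.0325). Its partners HAP2, HAP3 and HAP5 stood at -0.03, -0.23 and -0.07. HAP1, another activator on the list, stood at 0.33 and did not pass (limma adjusted p = 0.0785). Both its CG-1521 values lay above both control values. The 14 ATP synthase subunit genes, with 0 called, had a median of 0.03, and the difference from the respiratory chain list is given as these counts and medians without a test.

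Of 8 vacuolar transporters that run on the gradient made by the V-ATPase, 2 rose and 2 fell, beside 12.9% higher and 16.8% lower among all genes. YPQ1, an exchanger of basic amino acids, had log2 values of 9.10 and 9.21 in CG-1521 cultures, against 10.80 and 10.73 in control cultures, and fell by 1.61 (SE 0.10, limma adjusted p = 0.00676). COT1, a zinc and cobalt transporter, rose by 0.99, the amino acid exporter AVT3 rose by 0.59, and the zinc transporter ZRC1 fell by 0.51. Of 3 genes for the proton pump of the plasma membrane and its regulator, 0 were called, beside 29.7% of all genes. PMA1, the main pump, had 8.78 and 9.30 in CG-1521 cultures, against 9.82 and 9.71 in control cultures. Both CG-1521 values were lower, and its log2 fold change of -0.73 (SE 0.20) lay just outside the threshold (limma adjusted p = 0.0511).

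The genes next to the members on the chromosomes, in the order of the R64 annotation, were counted as well. Of 84 adjacent protein-coding genes 76 were measured, and 8 rose and 16 fell, or 31.6%, close to the 29.7% among all genes; 0 of these neighbours was itself a member. STF1 lies between LYS21 (0.03) and RPP1B (-0.23), and STF2 between ECT1 (0.19) and SEC9 (0.26), and none of these 4 neighbours passed. ATP10 lies between ART10, which rose by 0.52, and CST9 (-0.12). ATP3, at -0.33 and not called, lies between CHS2 (-0.66) and FIG1 (-1.41), which both fell.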

How the data were processed

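The authors deposited a log2 value for each probeset on each array, made with Affymetrix Expression Console and RMA per the submitters' processing notes, which give neither versions nor settings. Because RMA quantile-normalizes, a shared rise or fall of every transcript would be hidden. Groups and replicate numbers came from the sample titles.

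Of 10928 probesets, 5498 were tied to yeast genes by matching the platform's gene identifiers to the R64 annotation; names and the order of genes come from it. For 47 genes with several probesets the one with the highest mean was kept, leaving 5449 genes. Background was the 95th percentile of 1746 Schizosaccharomyces pombe probesets on each array.

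The comparison used lmFit and eBayes of limma 3.58.1 under R 4.3.3 (2 residual and 2.69 prior degrees of freedom), two-sided, with Benjamini-Hochberg adjustment over all genes. Precision is limited by having 4 arrays. In 20 simulated data sets of the 5449 genes, 200 genes were changed. The fit recovered 93.2% of changes of 2, 61.4% of changes of 1 and 0.8% of changes of 0.5 on the log2 scale. Of its calls 4.87% were false. In the data 1620 genes were called, so the adjusted threshold was less strict than in the simulation. The simulated rates therefore do not carry over: AEP2, for instance, passed at -0.49. Figures were drawn with matplotlib 3.10.9.

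All members are named, with values per array for called members, paralog pairs and the nearest misses, and for others where they describe a sector. Related lists give called genes and up to 2 others. CYC7, HAP2, HAP5, MIR1, PET9 and VMA9, and the adjacent genes, were named beyond that rule. Members and lists were chosen with earlier results of these data known. Alternatives covered the replicate block, normalization, features in the fit, dim probes, probeset choice, eBayes options and left-out arrays. Sequences of the members were not used here.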

Additional observations from a re-analysis of the deposited data

How the results depend on the processing

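STF1 and STF2 kept their direction and call in all 13 alternatives, and of the 42 members 31 kept their sign in all of them and 30 were never called. ATP10 kept its call in 6, and its adjusted p was 0.0717 with the replicate number as a block. The other 11 members changed sign in some alternative, and were called neither with all 4 arrays nor there. ATP synthase members called lower numbered 0 with the replicate number as a block and with all probesets in the fit, 0 to 4 when an array was left out, and 1 otherwise, apart from the crossed block below; with an intensity trend that gene was ATP11 in place of ATP10. The 4 without CG-1521 replicate 2 were ATP3, ATP11, ATP17 and ATP20. ATP synthase members called higher numbered 4 with an intensity trend, which added ATP4 and ATP15. V-ATPase members called higher numbered 1, RAV2, after re-centring, after renormalization over S. cerevisiae genes, with the filter on dim probes, with the mean of a gene's probesets and with an intensity trend, which also gave 1 lower, VPH1, and 0 to 1 when an array was left out. The medians ranged, with an array left out, from -0.0224 to 0.0744 for the ATP synthase, from -0.0697 to 0.0311 for the V-ATPase and from -0.0366 to 0.0776 for their difference. A group left with 1 array was assumed to vary like the other group. With pump subunits alone the difference was 0.14. Calls over all genes numbered 369 higher and 450 lower with the replicate number as a block, 334 and 444 with all probesets in the fit, and 50 to 1001 higher and 16 to 1133 lower when an array was left out, with both low ends reached without control replicate 2 (58 and 18 without control replicate 1).

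The labels do not say that a replicate number marks a shared day or batch, and same-numbered deviations from the group means correlated at -0.26 across all genes and at -0.54 across the members, so the numbers were not used as pairs. With the numbers crossed as a block, an alternative chosen after seeing the data, 842 genes were higher and 978 lower, with 3 ATP synthase members higher and 2 lower and 1 V-ATPase member higher. With 2 arrays a group, changes of 0.5 were rarely recovered in simulated data, which held fewer changed genes than were called here. Members that did not pass are not shown to be unchanged. All alternatives listed at the outset were run. Outliers are not tested in groups of 2, so no outlier check of the members' values was made.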
